A study of Mus musculus with 30 samples.

Results

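Elastic fibre and microfibril genes are described here across the stromal populations of the mouse gut. They are 10 of the 32386 gene symbols measured: *Eln*, *Fbn1*, *Fbln1*, *Fbln2*, *Fbln5*, *Emilin1*, *Mfap2*, *Mfap4*, *Mfap5* and *Lox*. They were taken by name, for the known role of their proteins in elastic fibres and microfibrils, and not for a measured value. Earlier results of these data were known when they were chosen. An elastic fibre has a core of cross-linked elastin laid down on a scaffold of fibrillin microfibrils, and it lets a tissue stretch and recoil. Fibulins, EMILIN1 and the microfibril-associated proteins bind elastin or fibrillin and help the fibre to assemble, and lysyl oxidase starts the cross-links. In the gut such fibres lie in the submucosa, around vessels and in the muscle layers, and finer microfibrils reach into the lamina propria.

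The study measured RNA by sequencing in populations sorted by flow cytometry from the small intestine (SI) and the colon of mice. The sample labels spell their strain C57BL6/Nrj. All groups came from adult animals of 8 to 10 weeks, with no treatment and no genetic change named, and the labels speak of 3 individual mice without saying which library came from which. The paper describes 3 independent experiments and states that subsets of both tissues were sorted from the same mice. The main fits do not pair libraries. There are 10 populations with 3 libraries each, and 30 libraries in all. Peyer's patches, epithelium and the muscularis externa had been removed before sorting.

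Pericytes of both tissues were PDGFRα-ESAM-1+PDPN-, and the SI smooth muscle cells (SMC) were PDGFRα-ESAM-1+PDPN+. No colonic SMC were sequenced. The SI fibroblasts (FB), all ESAM-1-, were sorted as CD34+ with intermediate PDGFRα (CD34+ FB, a mixture of Igfbp5+ and CD81+ cells), CD34- with intermediate PDGFRα (Fgfr2+ FB) and CD34- with high PDGFRα (PDGFRα hi FB). The colonic FB were sorted as CD34+CD90- with intermediate PDPN (CD81+ FB), CD34+CD90+ with high PDPN (CD90+ FB), CD34+CD90- with high PDPN (Fgfr2+ FB) and CD34-PDPN+ (PDGFRα hi FB). The gates of Fgfr2+ FB and PDGFRα hi FB thus differed between tissues, so tissue and gate cannot be told apart in a comparison of these.

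The sum of estimated counts per library lay between 2245052, in SI Fgfr2+ FB replicate 3, and 19096945, in a library of colonic CD90+ FB, with a median of 9601683. Levels are counts scaled to library size (CPM) after TMM scaling of all 30 libraries together, given for each library or as mean ± SD (n = 3), and they compare a gene between populations, not genes with each other.

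The labels were checked against marker lists of other genes. The 8 sorting genes (*Pdgfra*, *Esam*, *Pdpn*, *Cd34*, *Thy1*, *Cd81*, *Fgfr2* and *Itgb1*) summed to 7366 to 8639.6 CPM in SI PDGFRα hi FB, 3105 to 3578 CPM in Fgfr2+ FB and 2320.1 to 2631 CPM in CD34+ FB of that tissue. In the colon they summed to 3499 to 3611 CPM in PDGFRα hi FB, 2479.8 to 2884 CPM in Fgfr2+ FB, 2354 to 4179 CPM in CD81+ FB and 2424 to 2918 CPM in CD90+ FB. Pericytes were at 1578 to 2180.3 CPM in the colon and 830.4 to 1762 CPM in the small intestine, and SMC at 1283 to 1593 CPM, with *Itgb1* the highest in all 3. *Pdgfra* was the highest in both PDGFRα hi FB and in SI CD34+ FB, and *Fgfr2* in SI Fgfr2+ FB. In colonic Fgfr2+ FB the highest was *Itgb1* in replicates 1 and 2 and *Pdgfra* in replicate 3. In CD90+ FB it was *Cd34* in replicate 1 and *Itgb1* in replicates 2 and 3. In colonic CD81+ FB it was *Cd34* in replicates 1 and 3 and *Pdgfra* in replicate 2. The list holds genes that a gate selects for and against, so its sum does not by itself check a gate. Single libraries had *Esam*, *Thy1* or *Pdpn* at 0. These sums were apart between the tissues for Fgfr2+ FB and also for PDGFRα hi FB, between SI CD34+ FB and Fgfr2+ FB, and between FB and the pericytes or SMC set against them below; their part in those results was not tested. The sum of 5 FB markers (*Pdgfra*, *Col1a1*, *Col1a2*, *Dcn* and *Lum*) was 35345 to 69757 CPM in SI CD34+ FB and 12056 to 14794 CPM in SI Fgfr2+ FB, against 1978 to 2562 CPM in SI pericytes and 1461 to 1716 CPM in colonic pericytes. It was 5132, 5285 and 9329 CPM in the 3 SMC libraries, with *Col1a1* highest in each. The sum of 5 pericyte markers, most of it *Rgs5*, was 31858 to 48282 CPM in SI and 32296 to 51847 CPM in colonic pericytes, and 3983 to 7399 CPM in SMC. It was not near 0 in the FB of the small intestine, at 3579.6 to 4214 CPM in CD34+ FB, overlapping SMC, 2919.7 to 3403 CPM in PDGFRα hi FB and 1846 to 2145 CPM in Fgfr2+ FB. Over the 4 colonic FB populations it ranged from 139.6 to 771 CPM. The sum of 5 smooth muscle markers was 16814 to 20783 CPM in SMC, 9914 to 11180.0 CPM in colonic pericytes and 2946 to 4493 CPM in SI pericytes, so the last 2 groups differed in their muscle markers without overlap. SI PDGFRα hi FB, at 2079 to 3393 CPM, overlapped SI pericytes for this sum. Markers of epithelium, immune cells, mesothelium and erythroid cells were low in most libraries, but *Cd79a* brought the 5 immune markers to 215 CPM in SI pericyte replicate 1, *Lyz2* brought them to 102 CPM in colonic pericyte replicate 2, and the 5 epithelial markers summed to 31.6 CPM in that library and 30.04 CPM in SI pericyte replicate 2. *Ano1*, listed with *Kit* for interstitial cells of Cajal, was at 1093, 547 and 694 CPM in SI pericytes, where *Kit* was far lower and at 0 in replicate 2, and at 722, 854 and 591 CPM in colonic pericytes, where *Kit* was at 0 in replicates 1 and 3. The part of these markers in the results below was not tested.

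On GRCm38, *Eln* lies on chromosome 5 from 134702593 to 134747323, *Fbn1* on chromosome 2 from 125300594 to 125507993, and *Mfap2* on chromosome 4 from 141010418 to 141015984. *Mfap4* lies on chromosome 11 from 61485431 to 61488900 and *Mfap5* on chromosome 6 from 122505845 to 122529290. *Fbln1* lies on chromosome 15 from 85205949 to 85286535, *Fbln2* on chromosome 6 from 91212455 to 91272540 and *Fbln5* on chromosome 12 from 101746565 to 101819055. *Emilin1* lies on chromosome 5 from 30913402 to 30921277 and *Lox* on chromosome 18 from 52516067 to 52529867. All are annotated as protein coding, and no member overlaps another.

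*Eln* encodes tropoelastin, the monomer of the elastic core. Its level was 2417, 1609 and 2242 CPM in the 3 libraries of colonic CD81+ FB, 1543, 1108 and 1779 CPM in SI CD34+ FB and 2718, 1362 and 1796 CPM in colonic CD90+ FB, with colonic Fgfr2+ FB at 1167, 1059 and 1627 CPM. These 4 populations overlapped one another and lay above all others. SI Fgfr2+ FB came next, at 232, 220.4 and 174 CPM, and the PDGFRα hi FB of colon and SI were lowest, at 43.3 ± 29.3 and 51.8 ± 37.4 CPM. Pericytes and SMC lay between, at 165 ± 61.8 CPM in colonic pericytes, 146 ± 64.3 CPM in SI pericytes and 115 ± 58.2 CPM in SMC. The only neighbours in this order whose libraries did not overlap were colonic and SI Fgfr2+ FB. Without a normalization factor, with deposited TPM or with protein-coding transcripts alone, the highest mean was in colonic CD90+ FB in place of CD81+ FB. In bulk libraries such as these, fewer cells that express a gene and less of its RNA per cell cannot be told apart, here and for every level below.

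*Fbn1* encodes fibrillin-1, the main protein of the microfibril backbone. It was at 9834, 8505 and 8201 CPM in colonic CD81+ FB, above every other library, and at 7301, 4076 and 4066 CPM in colonic CD90+ FB. SI CD34+ FB followed with 4388 ± 736 CPM, colonic Fgfr2+ FB with 3306 ± 792 CPM, SI PDGFRα hi FB with 2703 ± 122 CPM, SI Fgfr2+ FB with 1755 ± 241 CPM and colonic PDGFRα hi FB with 1580.3 ± 327 CPM. The lowest levels were in SI pericytes (764 ± 281 CPM), SMC (690.4 ± 109.8 CPM) and colonic pericytes (420.4 ± 49.9 CPM). SI PDGFRα hi FB stood clear of SI Fgfr2+ FB, colonic PDGFRα hi FB stood clear of SI pericytes, and SMC stood clear of colonic pericytes, while 5 of the 9 pairs of neighbours overlapped.

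*Mfap2* and *Mfap5* encode the small microfibril-associated glycoproteins MAGP-1 and MAGP-2, which bind fibrillin. *Mfap5* was at 687, 609 and 445 CPM in colonic CD81+ FB, 411, 385 and 398 CPM in colonic CD90+ FB, with colonic Fgfr2+ FB next at 389.6, 268 and 344 CPM. It was at 132, 105 and 377 CPM in SMC and 179.8, 163 and 156 CPM in SI CD34+ FB. All of these libraries lay above those of the other 5 populations, which ranged from 12.2 ± 14.8 CPM in colonic pericytes down to 0.79 ± 0.404 CPM in SI PDGFRα hi FB. SMC replicate 3 was the high library of its group. It also had the highest FB, pericyte and endothelial marker sums of the SMC libraries (9329, 7399 and 192 CPM), and their part in its *Mfap5* level was not tested.

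*Mfap2* ranged from 34.95 ± 22.7 CPM in colonic CD81+ FB to 6.37 ± 9.75 CPM in colonic pericytes. Each pair of neighbours in its order overlapped. Colonic pericyte replicate 3, at 17.6 CPM, stood apart from replicates 1 and 2, at 0 and 1.51 CPM. *Mfap4* encodes a fibrinogen-related glycoprotein that binds elastin and fibrillin. It was at 3501, 2746 and 3951 CPM in SI CD34+ FB, 1555, 1526 and 3026 CPM in colonic Fgfr2+ FB and 1497, 1674 and 2911 CPM in colonic CD81+ FB. These 3 populations overlapped and were followed by SI Fgfr2+ FB (1163 ± 182 CPM), colonic CD90+ FB (1149 ± 82.8 CPM) and SMC (666 ± 100.2 CPM). The PDGFRα hi FB of SI and colon were lower (307 ± 111 and 184 ± 36.9 CPM), and their pericytes lowest (10.3 ± 9.01 and 3.44 ± 0.262 CPM). Gaps without overlap stood below colonic CD81+ FB, below colonic CD90+ FB, below SMC, below colonic PDGFRα hi FB and, by a small margin, between the pericytes of the 2 tissues.

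Fibulin-1 and fibulin-2, encoded by *Fbln1* and *Fbln2*, bind elastin, fibrillin and basement membrane proteins. *Fbln1* was at 3486, 3102 and 2664 CPM in SI CD34+ FB, above every other library. Colonic Fgfr2+ FB at 1963 ± 534 CPM, CD90+ FB at 1464 ± 324 CPM and CD81+ FB at 1455 ± 399.6 CPM overlapped. Then came colonic PDGFRα hi FB at 249, 367 and 325 CPM and SI Fgfr2+ FB at 342, 214 and 109.9 CPM, which also overlapped. The remaining 4 populations were at or below 15.8 CPM in each library: 11.3 ± 4.901 CPM in SMC, 9.44 ± 4.14 CPM in SI PDGFRα hi FB, 4.45 ± 2.15 CPM in colonic pericytes and 2.71 ± 0.642 CPM in SI pericytes.

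*Fbln2* was at 1781, 714 and 553 CPM in colonic CD81+ FB, where replicate 1 was far above the others. It was at 518 ± 181 CPM in colonic CD90+ FB, 397 ± 40.4 CPM in SI CD34+ FB, 314 ± 135 CPM in colonic Fgfr2+ FB and 194 ± 101 CPM in SI Fgfr2+ FB, with overlap from each to the next. Colonic PDGFRα hi FB stood alone at 116, 63.5 and 86.3 CPM, and the other 4 populations were at 14.1 CPM or less in each library. Fibulin-5, encoded by *Fbln5*, is needed for elastic fibre assembly and ties elastin to cells and to lysyl oxidase-like proteins. *Fbln5* was highest in SI Fgfr2+ FB, at 473, 371 and 331 CPM, and next in SI PDGFRα hi FB, at 209.9, 348 and 338 CPM. Its range over the 7 FB populations was narrow, down to 135 ± 23.7 CPM in colonic PDGFRα hi FB. SMC were at 61.6, 46.8 and 89.2 CPM, below every FB library except colonic CD81+ FB replicate 3, which at 88.2 CPM lay under SMC replicate 3, and pericytes were lowest, at 3.59 ± 2.03 CPM in the colon and 2.91 ± 2.51 CPM in the small intestine.

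*Emilin1* encodes an elastin-associated glycoprotein at the interface of the core and the microfibrils. It was highest in SI PDGFRα hi FB, at 329, 362 and 177 CPM, then in colonic PDGFRα hi FB, at 225, 178 and 268 CPM, and in SI Fgfr2+ FB, at 242, 269 and 111 CPM. The lowest mean was in SI pericytes, at 11.9 ± 10.5 CPM, and each pair of neighbours overlapped. Single libraries stood apart: colonic pericytes were at 12.4, 19.5 and 154 CPM and SMC at 143, 108 and 18.04 CPM, with replicate 3 the odd library in each.

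*Lox* encodes lysyl oxidase, the enzyme that cross-links elastin and collagen. It was at 398, 316 and 347 CPM in colonic Fgfr2+ FB, 441, 161 and 189 CPM in colonic CD81+ FB and 174, 208 and 329 CPM in colonic CD90+ FB. SI CD34+ FB followed at 162 ± 43.4 CPM, then colonic PDGFRα hi FB and colonic pericytes at 114 ± 16.5 and 107 ± 27.2 CPM. SI Fgfr2+ FB was at 31.2, 55.9 and 137 CPM, SMC at 30.2 ± 11.2 CPM, SI pericytes at 26.7 ± 4.96 CPM and SI PDGFRα hi FB at 21.4 ± 12.2 CPM. Each pair of neighbours overlapped, and replicate 3 of SI Fgfr2+ FB, the library with the lowest depth, was the highest of its group.

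**Figure D1:**
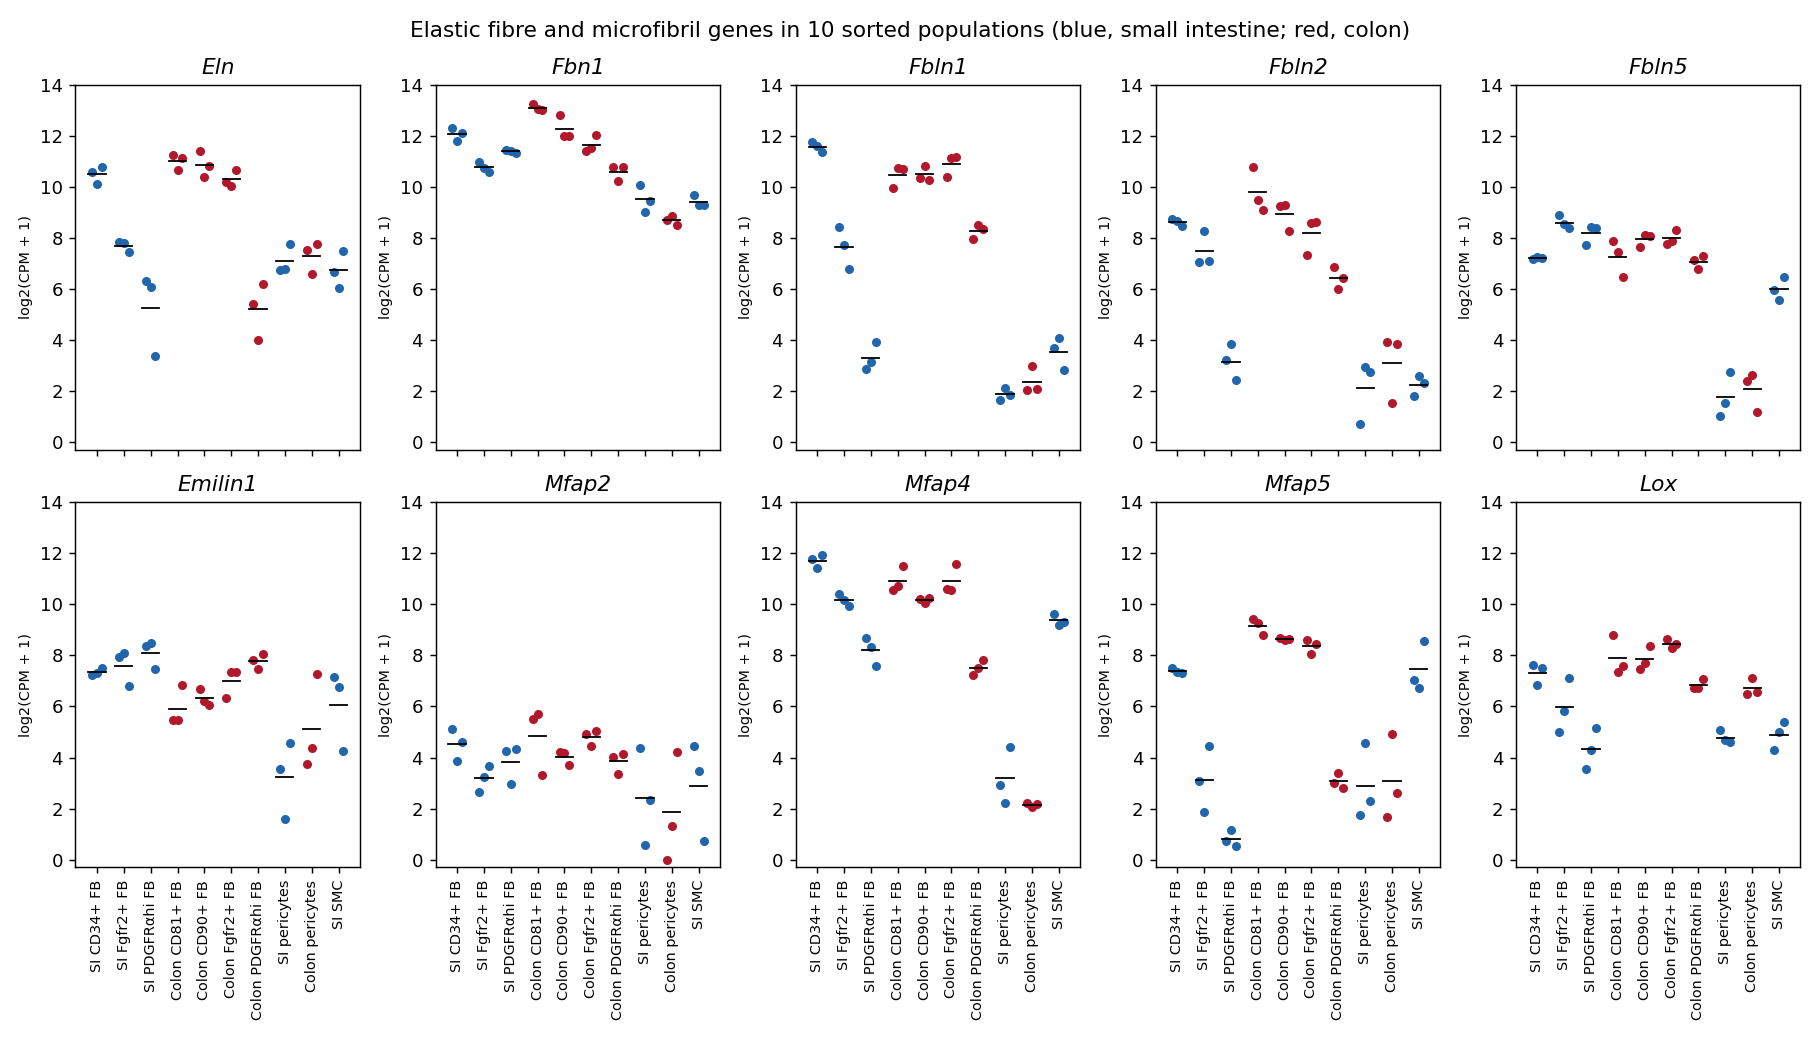
Level of each of the 10 genes in the 10 populations, as log2(CPM + 1) on the y axis, with a point for each library and a line at the mean of the 3 log2 values; SI populations are blue and colonic ones red. *Fbln1* and *Mfap4* spread widest over the populations, *Fbn1* stayed at 369 CPM or more in every library, and *Mfap2* stayed at 51.3 CPM or less.

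To compare the genes within a population, levels were divided by effective transcript length and summed over protein-coding transcripts (CPM per kilobase). Summed over the 10 genes, the level per kilobase was 4565 ± 525 in SI CD34+ FB, 4142 ± 428 in colonic CD81+ FB, 3199 ± 812 in colonic Fgfr2+ FB and 2860.0 ± 272 in colonic CD90+ FB. It was 1241 ± 172 in SI Fgfr2+ FB, 814 ± 221 in SMC, and 628 ± 94.3 and 546 ± 62.7 in the PDGFRα hi FB of SI and colon. Pericytes had the least, 129.8 ± 33.6 for the colon and 144 ± 17.7 for the SI. FB thus spanned a wide range, with the PDGFRα hi FB of both tissues below SMC by mean.

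The gene with the largest share of that sum was *Mfap4* in 6 populations and *Fbn1* in the other 4. *Mfap4* held 61.2% in SI Fgfr2+ FB, 54.6% in SMC, 49.7% in SI CD34+ FB, 43% in colonic Fgfr2+ FB, 33.3% in colonic CD81+ FB and 27.1% in colonic CD90+ FB. *Fbn1* held 55.1% in SI pericytes, 44.6% in SI PDGFRα hi FB, 33.5% in colonic pericytes and 29.98% in colonic PDGFRα hi FB. Over all transcripts, *Eln* had the largest share in colonic pericytes (26.7%) and *Emilin1* in colonic PDGFRα hi FB (28.1%), and the first gene of the other 8 populations was the same. Coding transcripts were chosen after seeing the data. Leaving out any library did not change which gene was first in its population. *Mfap5* was the gene with the next largest share in SMC (28.1%, and 14.95% without SMC replicate 3) and *Fbln1* in SI CD34+ FB (27.01%). *Eln* held 19.98% in colonic and 17.1% in SI pericytes, the latter 25.95% without SI pericyte replicate 1 and 7.43% without replicate 3. It held 14.2% in colonic CD90+ FB and 9.34% in colonic CD81+ FB, but 0.928% in colonic PDGFRα hi FB. *Emilin1* held 8.79% and *Fbln5* 8.44% in SI PDGFRα hi FB, against 0.627% and 0.576% in SI CD34+ FB. Over all transcripts these were 30.39% and 6.25%, against 3.219% and 0.5259%. The share of *Eln* over all transcripts was 28.73% in SI pericytes, 14.72% in colonic CD81+ FB and 2.122% in colonic PDGFRα hi FB.

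**Figure D2:**
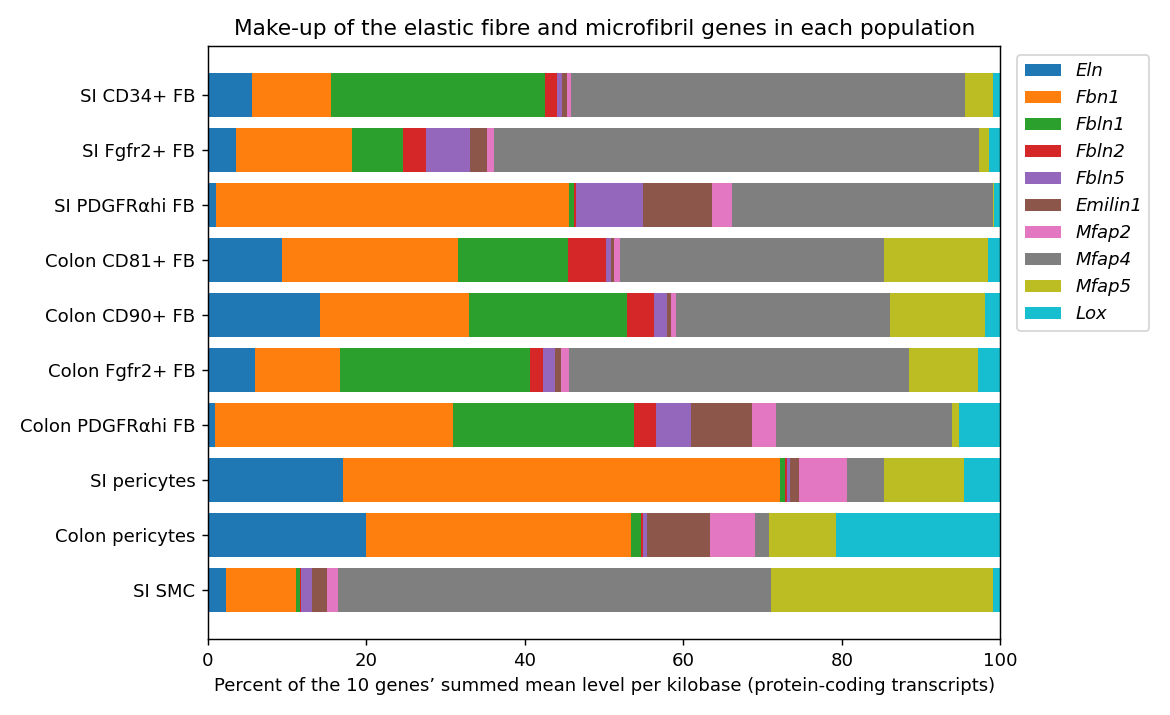
Share of each of the 10 genes in their summed mean level per kilobase (protein-coding transcripts), as percent on the x axis, for each population on the y axis. *Mfap4* takes the widest band in 6 populations and *Fbn1* in both PDGFRα hi FB and both pericyte populations.

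The first comparison sets Fgfr2+ FB against PDGFRα hi FB over both tissues, 6 libraries against 6, with the log2 values of the tissues averaged on each side. Elastin, both long fibulins, 2 microfibril-associated proteins and lysyl oxidase were higher in Fgfr2+ FB. *Eln* was 11.2-fold, *Fbln1* 12.3-fold, *Fbln2* 9.03-fold, *Mfap4* 6.59-fold, *Mfap5* 23.3-fold and *Lox* 3.38-fold higher. Of the 10 members, all tested, 6 were called higher and 0 lower, while 2.2% of the 15677 genes tested were called higher and 2.19% lower. Calls needed an adjusted p under 0.05 together with a log2 fold change beyond 1.5 in either direction. Median log2 fold changes were 2.24 over the 10 genes and 0.03 over all genes tested. By DESeq2 6 members were called, among 920 genes in all. By edgeR 8 had an unadjusted p below 0.05, as did 17.7% of the genes tested. Unadjusted p-values are from edgeR in each comparison below too.

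*Eln* in PDGFRα hi FB was at 41.3, 15.05 and 73.6 CPM in the colon and 79.7, 66.4 and 9.302 CPM in the small intestine, so each of the 6 PDGFRα hi FB libraries lay below all 6 of Fgfr2+ FB (log2 difference of 3.48 ± 0.44 SE, adjusted p = 7.61e-05). *Mfap4* in PDGFRα hi FB was at 149, 180.0 and 223 CPM in the colon and 409, 323 and 189 CPM in the small intestine, against 1354, 1144 and 992 CPM in SI Fgfr2+ FB. Its groups did not overlap either (2.72 ± 0.23 SE, adjusted p = 1.01e-06). *Fbln2*, at 133, 309.7 and 138 CPM in SI Fgfr2+ FB and 8.303, 13.4 and 4.36 CPM in SI PDGFRα hi FB, was also higher in each Fgfr2+ FB library than in any PDGFRα hi FB library (3.18 ± 0.34 SE, adjusted p = 1.45e-05). For coding transcripts alone that was not so, with SI Fgfr2+ FB replicate 1 at 60.3 CPM and colonic PDGFRα hi FB replicate 1 at 90.6 CPM. For *Fbln1* (3.62 ± 0.29 SE, adjusted p = 6.32e-07) and *Mfap5* (4.54 ± 0.45 SE, adjusted p = 6.39e-06) the subsets did not overlap within a tissue, but SI Fgfr2+ FB libraries overlapped colonic PDGFRα hi FB libraries. For its coding transcripts *Mfap5* overlapped within the small intestine too, with SI Fgfr2+ FB replicate 1 at 0.594 CPM and SI PDGFRα hi FB at up to 0.637 CPM. *Lox* differed by 1.76 ± 0.35 (SE, adjusted p = 0.00439), with overlap within the small intestine, and without SI Fgfr2+ FB replicate 3 its log2 fold change was 1.35 (adjusted p = 0.00801), no longer past the fold threshold. *Fbln5*, at 0.69 ± 0.18 (SE, adjusted p = 0.0349), did not reach the fold threshold, and *Fbn1* (0.25, adjusted p = 0.402), *Emilin1* (-0.58, adjusted p = 0.246) and *Mfap2* (0.13, adjusted p = 0.929) were not called. The value of *Mfap2* was below 0 without SI Fgfr2+ FB replicate 3 or SI PDGFRα hi FB replicate 2. Smooth muscle markers and the pair *Ano1* and *Kit* moved with these differences. The smooth muscle sum of 5 genes, none at 0, was 1245, 1135 and 2111 CPM in colonic and 2079, 3393 and 2370.5 CPM in SI PDGFRα hi FB, with *Acta2* and *Myh11* the highest in turn, against 210.3, 217 and 431 CPM and 681, 846 and 475 CPM in Fgfr2+ FB, with *Acta2* the highest. *Ano1* and *Kit* together were at 77.03 to 83.3 CPM in colonic and 7.098 to 43.5 CPM in SI PDGFRα hi FB, with *Ano1* at 0 in SI replicate 1, against 1.14 to 1.66 and 1.05 to 4.49 CPM in Fgfr2+ FB, with *Kit* at 0 in colonic replicate 2. *Ano1* was the higher of the pair in colonic PDGFRα hi FB and *Kit* in SI PDGFRα hi FB, and in Fgfr2+ FB either was. The part of these markers in the result was not tested.

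Among 27 partner genes, listed by role, 26 were tested here, and 3 were called higher and 2 lower in Fgfr2+ FB. The 3 higher ones were all ADAMTS family members that bind microfibrils, among them *Adamtsl5* (2.17 ± 0.39 SE, adjusted p = 0.00185) and *Adamts10* (1.87 ± 0.24 SE, adjusted p = 8.34e-05). *Fbn2*, which encodes the second fibrillin, was lower in Fgfr2+ FB (-2.38 ± 0.32 SE, adjusted p = 1.22e-04), with 414, 289 and 485 CPM in SI PDGFRα hi FB and 46.6, 22.3 and 53.6 CPM in SI Fgfr2+ FB. *Tll2*, a protease of the family that processes lysyl oxidase, was at 49.3, 27.1 and 56.96 CPM in SI PDGFRα hi FB, 3.92, 1.53 and 0.679 CPM in those of the colon and at 4 counts or fewer in each Fgfr2+ FB library. It was the other gene called lower, and it passed the filter on low counts through the PDGFRα hi FB libraries, where it was high.

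The next comparison asks how PDGFRα hi FB of the colon differ from those of the small intestine. The colonic cells had more RNA of 4 members: *Fbln1* was 33.98-fold, *Fbln2* 10.4-fold, *Mfap5* 9.13-fold and *Lox* 5.42-fold higher. That made 4 of 10 members called higher and 0 lower, while 1.12% of the 15677 genes tested were called higher and 0.638% lower. As medians, log2 fold changes were -0.14 over the 10 genes and -0.004 over all genes tested. By DESeq2 4 members were called, among 520 genes in all, and 7 had an unadjusted p below 0.05, as did 9.15% of the genes tested.

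*Fbln1* was at 6.29, 7.897 and 14.1 CPM in SI PDGFRα hi FB and *Fbln2* at 8.303, 13.4 and 4.36 CPM. Every colonic library was above these, with log2 fold changes of 5.09 ± 0.43 (SE, adjusted p = 8.16e-06) for *Fbln1* and 3.37 ± 0.49 (SE, adjusted p = 8.45e-04) for *Fbln2*. *Mfap5* was at 6.98, 9.57 and 5.97 CPM in the colon and 0.6696, 1.24 and 0.459 CPM in the small intestine (3.19 ± 0.64 SE, adjusted p = 0.0118). *Lox* was at 104, 105 and 133 and 10.7, 18.7 and 34.7 CPM (2.44 ± 0.503 SE, adjusted p = 0.0148). The tissues did not overlap for either gene. *Mfap5* lost its call without colonic replicate 2, at 2.96 (adjusted p = 0.0523), without SI replicate 1, at 3.09 (adjusted p = 0.0658), and without SI replicate 3, at 2.94 (adjusted p = 0.0667); with all 30 libraries in 1 model it was at 3.16 (adjusted p = 0.0689). *Lox* lost its call without colonic replicate 3, at 2.32 (adjusted p = 0.0624), without SI replicate 1, at 2.12 (adjusted p = 0.0841), and without SI replicate 2, at 2.33 (adjusted p = 0.0865), so that 2 members were called without SI replicate 1. *Fbln5* was at -1.11 ± 0.26 (SE, adjusted p = 0.0381) and did not reach the fold threshold, and *Fbn1* was at -0.74 (adjusted p = 0.0753). Pericyte markers also differed between the tissues, with all 5 measured and none at 0: they summed to 454, 407 and 479 CPM in the colon and 2923, 3403 and 2919.7 CPM in the small intestine, *Abcc9* being the highest in each library. *Ano1* and *Kit* together were at 77.03 to 83.3 CPM, nearly all *Ano1*, against 7.098 to 43.5 CPM, mostly *Kit*, with *Ano1* at 0 in SI replicate 1. The part of either list in the result was not tested.

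Of 26 partner genes tested, 0 were called higher and 5 lower in colonic PDGFRα hi FB. The hemicentins, fibulin-like proteins of the extracellular matrix, were among them: *Hmcn2* was at 786, 834 and 509.5 CPM in the colon and 6389, 7763 and 2279 CPM in the small intestine (-2.902 ± 0.39 SE, adjusted p = 4.50e-04), and *Hmcn1* differed by -1.92 ± 0.34 (SE, adjusted p = 0.00503). *Fbln7*, another fibulin, was at -2.17 ± 0.38 (SE, adjusted p = 0.00437). *Tll2*, whose levels are given above, was also called lower, but it passed the filter on low counts through the libraries where it was high.

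In Fgfr2+ FB, the colon was again higher, for elastin, fibulin-1, MAGP-2 and lysyl oxidase. *Eln* was 5.98-fold, *Fbln1* 8.64-fold, *Mfap5* 32.6-fold and *Lox* 4.57-fold higher, so that 4 of 10 members were called higher and 0 lower, while 1.82% of the 15677 genes tested were called higher and 1.27% lower. In the middle of each distribution, the median log2 fold change was 1.26 over the 10 genes and -0.01 over all genes tested. By DESeq2 5 members were called, with *Mfap2* the added member (1.65, adjusted p = 0.0339), among 1084 genes in all, and 8 had an unadjusted p below 0.05, as did 17.4% of the genes tested. This comparison shares its fit with those of PDGFRα hi FB, and the SI libraries of both subsets also serve in comparisons given below.

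*Mfap5* was at 389.6, 268 and 344 CPM in colonic and 7.46, 2.62 and 21.1 CPM in SI Fgfr2+ FB, the latter with replicate 3 highest (5.03 ± 0.63 SE, adjusted p = 2.44e-04). *Fbln1* was at 1349, 2223 and 2318 and 342, 214 and 109.9 CPM (3.11 ± 0.39 SE, adjusted p = 2.45e-04). *Eln* differed by 2.58 ± 0.599 (SE, adjusted p = 0.0256) and *Lox* by 2.19 ± 0.497 (SE, adjusted p = 0.0228). For all 4 genes every colonic library was above every SI library. *Fbn1*, at 0.87 ± 0.199 (SE, adjusted p = 0.02401), did not reach the fold threshold, and *Fbln2* was at 0.65 (adjusted p = 0.485). Without SI replicate 3 *Mfap5* was at 6.03 (adjusted p = 4.84e-05) and *Lox* at 3.003 (adjusted p = 0.00273), both still called.

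The calls of *Eln* and *Lox* in that comparison were lost when single libraries were left out. *Eln* was at 2.63 (adjusted p = 0.0548), 2.703 (adjusted p = 0.0512) and 2.39 (adjusted p = 0.0842) without colonic replicates 1, 2 and 3. It was at 2.64 (adjusted p = 0.068), 2.62 (adjusted p = 0.0667) and 2.49 (adjusted p = 0.0737) without SI replicates 1, 2 and 3. *Lox* was at 2.08 (adjusted p = 0.0658), 2.27 (adjusted p = 0.0516) and 2.22 (adjusted p = 0.0598) without colonic replicates 1, 2 and 3, and at 1.81 (adjusted p = 0.0575) and 2.01 (adjusted p = 0.0749) without SI replicates 1 and 2. In those 5 fits that lost both genes, 2 members were called. Several marker lists moved with this comparison. With all 5 genes of each above 0, pericyte markers, *Rgs5* the highest, summed to 537, 649 and 771 CPM in the colon and 2145, 1846 and 2026 CPM in the small intestine, and smooth muscle markers, *Acta2* the highest, to 210.3, 217 and 431 and 681, 846 and 475 CPM. FB markers, *Col1a1* the highest and none at 0, summed to 21326, 18585 and 29736 and 14794, 12056 and 12409 CPM. Endothelial markers, most of them *Pecam1*, were at 33.05 to 39.1 and 60.1 to 76.7 CPM, with *Cdh5*, *Emcn* or both at 0 in each library. The part of any of these in the result was not tested.

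Of 26 partner genes tested, 3 were called higher and 2 lower in colonic Fgfr2+ FB. *Hmcn1* was at 49.7, 17.8 and 50.5 CPM in the colon and 1820.0, 2008 and 1586 CPM in the small intestine (-5.56 ± 0.403 SE, adjusted p = 1.79e-06). *Fbln7* was also lower (-3.27 ± 0.398 SE, adjusted p = 1.81e-04), and *Adamtsl5* was higher (2.29 ± 0.55 SE, adjusted p = 0.0294). *Emilin3* was at 18.6, 7.42 and 0.665 CPM in colonic Fgfr2+ FB, with as few as 6 counts in a library, and at 0 counts in the 3 SI libraries. It thus passed the filter on low counts through other libraries, among them the colonic ones where it was high.

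Whether the tissue difference itself differed between Fgfr2+ FB and PDGFRα hi FB was tested as an interaction. The interaction, colon minus small intestine in Fgfr2+ FB less that in PDGFRα hi FB, was above 0 for *Fbn1* and below 0 for *Fbln2*. For *Fbln2* both tissue differences were positive, that in Fgfr2+ FB being the smaller. Of 10 members, 1 was called higher and 1 lower, while 0.600% of the 15677 genes tested were called higher and 0.683% lower. The median interaction was 0.97 over the 10 genes and -0.001 over all genes tested. By DESeq2 4 members were called, with *Eln* and *Fbln1* added, among 561 genes in all, and 6 had an unadjusted p below 0.05, as did 11.3% of the genes tested.

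*Fbn1* in Fgfr2+ FB was at 2728, 2980.3 and 4209 CPM in the colon and 2004, 1736 and 1524 CPM in the small intestine, and in PDGFRα hi FB at 1767, 1202 and 1772 and 2809.7, 2728 and 2571 CPM. In Fgfr2+ FB every colonic library was the higher, and in PDGFRα hi FB every colonic library was the lower, an interaction of 1.62 ± 0.28 (SE, adjusted p = 0.00653). It was 1.42 (adjusted p = 0.0188) without colonic Fgfr2+ FB replicate 3 and 1.46 (adjusted p = 0.0215) without colonic PDGFRα hi FB replicate 2, in both below the fold threshold. *Fbln2* in Fgfr2+ FB was at 159, 385 and 399 CPM in the colon and 133, 309.7 and 138 CPM in the small intestine, which overlapped, while in PDGFRα hi FB the tissues were apart (-2.72 ± 0.64 SE, adjusted p = 0.0495).

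The call of *Fbln2* was lost without any of 9 libraries. Its interaction was -2.41 (adjusted p = 0.0936), -2.898 (adjusted p = 0.0867) and -2.92 (adjusted p = 0.0847) without colonic Fgfr2+ FB replicates 1, 2 and 3. It was -2.47 (adjusted p = 0.141), -2.905 (adjusted p = 0.06597) and -2.75 (adjusted p = 0.0998) without colonic PDGFRα hi FB replicates 1, 2 and 3. It was -2.21 (adjusted p = 0.09798) without SI Fgfr2+ FB replicate 2, and -2.696 (adjusted p = 0.123) and -2.41 (adjusted p = 0.0926) without SI PDGFRα hi FB replicates 1 and 3. With upper-quartile normalization it was -2.73 (adjusted p = 0.0506), and with all libraries in 1 model -2.64 (adjusted p = 0.271).

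*Eln*, at 2.81 ± 0.82 (SE, adjusted p = 0.128), and *Fbln1*, at -1.98 ± 0.52 (SE, adjusted p = 0.0874), were not called by edgeR. By DESeq2 they were called, *Eln* at 2.78 (adjusted p = 0.0243) and *Fbln1* at -1.99 (adjusted p = 0.0192), and also with no filter on low counts, at 2.81 (adjusted p = 0.0162) and -1.96 (adjusted p = 0.0198). Without colonic PDGFRα hi FB replicate 3 *Eln* was at 3.41, not called. *Eln* was called without SI PDGFRα hi FB replicate 3, at 3.3 (adjusted p = 0.00957), as was *Mfap4*, at 1.72 (adjusted p = 0.046). *Fbln1* was called without that library, at -2.39 (adjusted p = 0.0335), and without SI Fgfr2+ FB replicate 3, at -2.28 (adjusted p = 0.0251). Of 26 partner genes tested, *Hmcn1* was lower (-3.64 ± 0.49 SE, adjusted p = 8.93e-04) and *Hmcn2* higher (2.85 ± 0.53 SE, adjusted p = 0.0096).

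**Figure D3:**
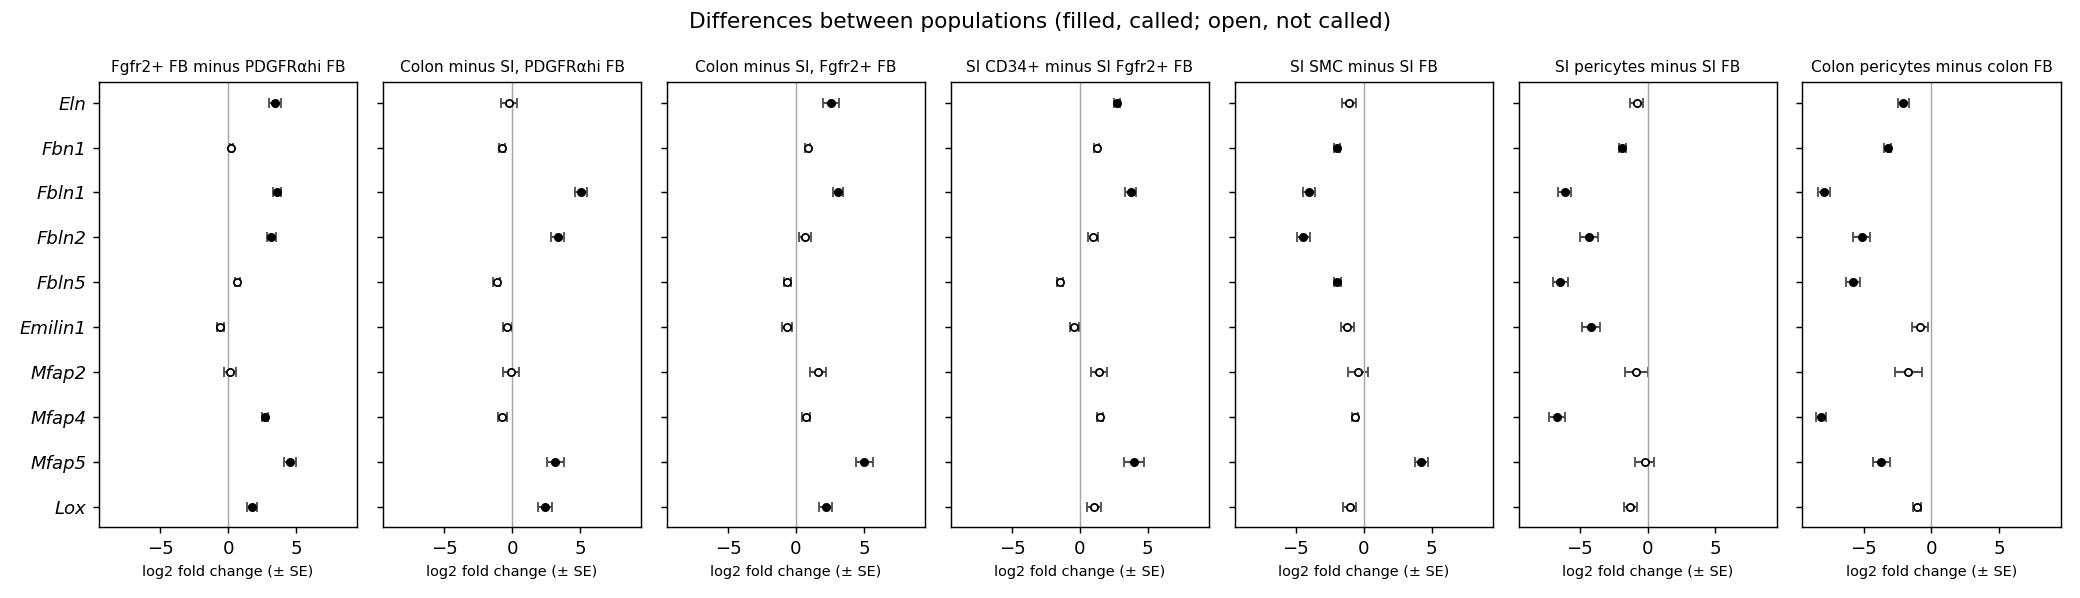
Log2 fold change of each gene (± SE) on the x axis in 7 comparisons, from edgeR fits, with filled points for genes called and open points for the others. *Mfap5* is called higher in Fgfr2+ FB, in the colon of both subsets, in SI CD34+ FB and in SMC against FB, and no point lies above 0 where pericytes are compared with FB.

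Within the SI FB of intermediate PDGFRα, the CD34+ cells had more elastin, fibulin-1 and MAGP-2 RNA than the CD34- Fgfr2+ FB. *Eln* was 6.77-fold, *Fbln1* 13.4-fold and *Mfap5* 15.9-fold higher in CD34+ FB. So 3 of 10 members were called higher and 0 lower, while 1.82% of the 14978 genes tested were called higher and 0.821% lower. Median log2 fold changes were 1.34 over the 10 genes and -0.096 over all genes tested. By DESeq2 3 members were called, among 1057 genes in all, and 8 had an unadjusted p below 0.05, as did 19.3% of the genes tested.

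*Eln* was at 1543, 1108 and 1779 CPM in CD34+ FB and 232, 220.4 and 174 CPM in Fgfr2+ FB (2.76 ± 0.23 SE, adjusted p = 0.00265). *Fbln1* was at 3486, 3102 and 2664 and 342, 214 and 109.9 CPM (3.74 ± 0.39 SE, adjusted p = 0.00397). *Mfap5* was at 179.8, 163 and 156 and 7.46, 2.62 and 21.1 CPM (3.995 ± 0.71 SE, adjusted p = 0.0294). None of the 3 genes had overlapping groups. *Mfap5* was at 3.92 (adjusted p = 0.144), 3.99 (adjusted p = 0.135) and 4.02 (adjusted p = 0.118) without CD34+ FB replicates 1, 2 and 3, and its call was lost in each of these fits. It was at 5 (adjusted p = 0.0139) without Fgfr2+ FB replicate 3, still called. FB markers, with *Col1a1* the highest, summed to 69757, 35345 and 47924 CPM in CD34+ FB and 14794, 12056 and 12409 CPM in Fgfr2+ FB, and pericyte markers, with *Rgs5* the highest, to 3968, 4214 and 3579.6 and 2145, 1846 and 2026 CPM. Smooth muscle markers, with *Myh11* or *Acta2* the highest, went the other way, at 129, 107 and 134 and 681, 846 and 475 CPM. All 5 genes of each of these lists were measured and none was at 0. Endothelial markers, most of them *Pecam1*, were at 44.6, 55.4 and 38.9 and 69.4, 76.7 and 60.1 CPM, with *Emcn* at 0 in CD34+ FB replicates 1 and 2 and *Cdh5*, *Emcn* or both in each Fgfr2+ FB library. The part of these lists in the result was not tested.

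*Mfap4* (1.48 ± 0.195 SE, adjusted p = 0.0108), *Fbn1* (1.26 ± 0.18 SE, adjusted p = 0.0147) and *Fbln5* (-1.47 ± 0.195 SE, adjusted p = 0.0111) passed the threshold on adjusted p but not that on fold, *Fbln5* being the one with the higher level in Fgfr2+ FB. *Mfap4* was called without CD34+ FB replicate 2, at 1.63 (adjusted p = 0.02402), and without Fgfr2+ FB replicate 1, at 1.58 (adjusted p = 0.0152). It was also called with upper-quartile normalization, at 1.67 (adjusted p = 0.00314), and with no filter on low counts, at 1.501 (adjusted p = 0.00496). *Fbln5* was called without Fgfr2+ FB replicate 2, at -1.51 (adjusted p = 0.0236), and replicate 3, at -1.55 (adjusted p = 0.0157). *Lox* was called without Fgfr2+ FB replicate 3 as well, at 1.86 (adjusted p = 0.0481), against 1.04 ± 0.54 (SE, adjusted p = 0.345) with it, so that 5 members were called without that library. Of 25 partner genes tested, 2 were called higher, *Adamtsl5* (2.12 ± 0.43 SE, adjusted p = 0.0423) and *Loxl1*, a lysyl oxidase of elastic fibres (1.702 ± 0.28 SE, adjusted p = 0.0223). The 2 called lower were *Fbln7* (-1.998 ± 0.35 SE, adjusted p = 0.0267) and *Hmcn1* (-1.59 ± 0.18 SE, adjusted p = 0.00662).

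The colonic CD34+ FB were compared with their neighbours by gate. Between CD81+ FB and CD90+ FB, 0 members were called by edgeR in either direction, while 0.185% of the 15158 genes tested were called higher and 0.0396% lower. DESeq2 called 534 genes, none of them a member, and 2 members had an unadjusted p below 0.05, as did 10.3% of the genes tested. *Fbn1* was at 0.79 (adjusted p = 0.343) and *Mfap4* at 0.83 (adjusted p = 0.356), each with the higher mean in CD81+ FB. The 3 CD81+ FB libraries of *Fbn1* lay above the 3 of CD90+ FB, and so did those of *Mfap4*. Those of *Mfap5* did too (0.55, adjusted p = 0.525), with 445 to 687 CPM against 385 to 411 CPM. The sum of 5 FB markers, none at 0, was also apart, at 62671, 38877 and 45171 CPM in CD81+ FB and 21839, 22516 and 28338 CPM in CD90+ FB, with *Col1a1* the highest but for *Dcn* in CD81+ FB replicate 2. *Ano1* and *Kit* were apart at 0.946 to 1.75 and 0.568 to 0.786 CPM, with *Kit* at 0 in each CD81+ FB library. The part of either list was not tested. As medians, log2 fold changes were 0.36 over the 10 genes and 0.06 over all genes tested, and 0 of 25 partner genes tested were called.

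Between CD90+ FB and Fgfr2+ FB of the colon, 0 members were called by edgeR, while 0.0133% of the 15061 genes tested were called higher and 0% lower. DESeq2 called 97 genes, none of them a member, and 5 members had an unadjusted p below 0.05, as did 6.98% of the genes tested. These were *Eln* (0.597, adjusted p = 0.692), *Fbn1* (0.63, adjusted p = 0.659), *Emilin1* (-0.76, adjusted p = 0.673), *Mfap4* (-0.83, adjusted p = 0.534) and *Lox* (-0.59, adjusted p = 0.697). *Mfap4* was at 1184, 1055 and 1209 CPM in CD90+ FB and 1555, 1526 and 3026 CPM in Fgfr2+ FB, without overlap. *Mfap2* did not overlap either, at 17.6, 16.9 and 12.1 CPM and 29.1, 21.2 and 32.1 CPM (-0.84, adjusted p = 0.731). Of the marker lists, the 5 pericyte genes summed to 145, 217 and 305 and 537, 649 and 771 CPM, with *Rgs5* the highest, and the 5 smooth muscle genes to 108, 138 and 140.3 and 210.3, 217 and 431 CPM, with *Acta2* the highest and no gene of either list at 0. Endothelial markers, most of them *Pecam1*, were at 40.6, 50.95 and 72.9 and 35.8, 39.1 and 33.05 CPM, with *Cdh5* at 0 in CD90+ FB replicate 2 and in each Fgfr2+ FB library and *Emcn* in Fgfr2+ FB replicate 2. *Ano1* and *Kit* were at 0.568 to 0.786 and 1.14 to 1.66 CPM. The part of these lists was not tested. In the middle of each distribution, the median log2 fold change was -0.24 over the 10 genes and -0.02 over all genes tested, and 0 of 25 partner genes tested were called.

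Turning to the mural cells, SI SMC had far more *Mfap4* and *Fbln5* RNA than SI pericytes, 66.4-fold and 22.9-fold. Of 10 members, 2 were called higher and 0 lower, while 1.43% of the 13769 genes tested were called higher and 1.42% lower. Median log2 fold changes were 1.26 over the 10 genes and 0.01 over all genes tested. By DESeq2 3 members were called, among 1250 genes in all, and 4 had an unadjusted p below 0.05, as did 13.9% of the genes tested.

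*Mfap4* was at 779, 586 and 633 CPM in SMC and 6.64, 3.66 and 20.5 CPM in pericytes (6.05 ± 0.77 SE, adjusted p = 0.002901). *Fbln5* was at 61.6, 46.8 and 89.2 and 1.07, 1.89 and 5.78 CPM (4.52 ± 0.99 SE, adjusted p = 0.0425). *Mfap5* was at 132, 105 and 377 and 2.36, 22.5 and 3.93 CPM, and with 4.44 ± 1.02 (SE, adjusted p = 0.0513) it just missed the threshold on adjusted p. None of these 3 genes had overlapping groups. *Mfap5* was called by DESeq2, at 4.37 (adjusted p = 1.97e-04), and without pericyte replicate 2, at 6.03 (adjusted p = 0.0204). It was also called with upper-quartile normalization, at 4.56 (adjusted p = 0.0373), with no filter on low counts, at 4.42 (adjusted p = 0.00894), with a stricter filter, at 4.38 (adjusted p = 0.0291), and with all libraries in 1 model, at 4.4 (adjusted p = 4.87e-04). In the other 5 fits with a library left out it was not called, and it was lowest without SMC replicate 3, at 3.66 (adjusted p = 0.2404). Without pericyte replicate 3 *Mfap4* was at 7.04 (adjusted p = 0.00457) and *Fbln5* at 5.47 (adjusted p = 0.0494), both still called. With all libraries in 1 model *Fbln1*, at 2.04 (adjusted p = 0.00178), and *Emilin1*, at 2.91 (adjusted p = 0.0159), were called as well.

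*Fbln5* lost its call in that comparison without pericyte replicate 1, at 4.12 (adjusted p = 0.0537), and without pericyte replicate 2, at 4.28 (adjusted p = 0.109). It also lost it without SMC replicates 1, 2 and 3, at 4.55 (adjusted p = 0.158), 4.72 (adjusted p = 0.141) and 4.23 (adjusted p = 0.171). In 4 of these 5 fits 1 member was called, and without pericyte replicate 2 *Mfap5* took the place of *Fbln5*. With the replicate number as a block *Fbln5* lost its call as well, at 4.79 (adjusted p = 0.0587). In that fit *Mfap5* was called, at 5.02 (adjusted p = 0.0377). FB markers summed to more in SMC than in pericytes, 5132, 5285 and 9329 CPM against 2562, 2552 and 1978 CPM for the sum of 5 genes, all 5 above 0 in each library and *Col1a1* the highest. *Ano1* and *Kit* went the other way, nearly all of it *Ano1*, at 2.22, 0.674 and 0.5501 CPM in SMC and 1094, 547 and 703 CPM in pericytes, with *Kit* at 0 in SMC replicates 2 and 3 and pericyte replicate 2. The part of both lists in these differences was not tested. Of 22 partner genes tested, 4 were called higher and 0 lower: *Hmcn2* (6.35 ± 0.52 SE, adjusted p = 4.49e-04), *Efemp1*, which encodes fibulin-3 (5.31 ± 1.06 SE, adjusted p = 0.0268), *Ltbp4*, which binds latent TGF-β and fibulins (3.098 ± 0.43 SE, adjusted p = 0.00468), and *Hmcn1* (2.48 ± 0.51 SE, adjusted p = 0.0299).

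Pericytes of the SI tissue were then compared with the mean of the 3 SI FB populations, taken on the log2 scale. An FB population with a low level weighs as much in this mean as one with a high level. Of the members, 6 were lower in pericytes. *Mfap4* was 104-fold, *Fbln5* 86.9-fold, *Fbln1* 68.01-fold, *Fbln2* 19.5-fold, *Emilin1* 18.1-fold and *Fbn1* 3.602-fold lower. Thus 0 of 10 members were called higher and 6 lower, while 8.68% of the 15965 genes tested were called higher and 6.93% lower. As medians, log2 fold changes were -3.01 over the 10 genes and 0.02 over all genes tested. By DESeq2 6 members were called, among 3415 genes in all, and 7 had an unadjusted p below 0.05, as did 32.9% of the genes tested.

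*Mfap4* in pericytes was at 6.64, 3.66 and 20.5 CPM, below each FB library (-6.697 ± 0.59 SE, adjusted p = 3.60e-06). *Fbln5*, at 1.07, 1.89 and 5.78 CPM, was also below each FB library (-6.44 ± 0.55 SE, adjusted p = 2.96e-06). *Emilin1*, at 10.7, 2.02 and 22.9 CPM, and *Fbn1*, at 1069, 516 and 709 CPM, did not overlap the FB either (-4.18 ± 0.66 SE, adjusted p = 6.50e-04, and -1.85 ± 0.24 SE, adjusted p = 1.40e-04). *Fbln1* in pericytes, at 2.14, 3.41 and 2.58 CPM, came close to SI PDGFRα hi FB, at 6.29, 7.897 and 14.1 CPM (-6.09 ± 0.47 SE, adjusted p = 1.20e-06). *Fbln2*, at 0.643, 6.81 and 5.78 CPM, overlapped SI PDGFRα hi FB (-4.29 ± 0.66 SE, adjusted p = 5.36e-04). Without pericyte replicate 3 the log2 fold change was -7.703 (adjusted p = 1.35e-06) for *Mfap4*, -7.39 (adjusted p = 1.35e-06) for *Fbln5* and -5.09 (adjusted p = 4.97e-04) for *Emilin1*, and all 3 kept their call. Endothelial markers were higher in sum in these pericytes, at 164, 138 and 105 CPM with *Vwf* or *Pecam1* the highest and *Cdh5* at 0 in replicate 2, than in any SI FB library, where they reached at most 76.7 CPM with *Pecam1* the highest and 2 of 5 genes at 0 in some libraries. *Ano1* and *Kit*, nearly all of it *Ano1*, summed to 1094, 547 and 703 CPM, with *Kit* at 0 in replicate 2, against at most 43.5 CPM in the FB. The part of either list was not tested.

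The 4 members not called between SI pericytes and FB were *Eln* (-0.798, adjusted p = 0.266), *Mfap2* (-0.84, adjusted p = 0.533), *Mfap5* (-0.22, adjusted p = 0.872) and *Lox* (-1.26, adjusted p = 0.101). Single libraries moved 2 of these values without a call: *Mfap2* was at -2.64 (adjusted p = 0.0601) without pericyte replicate 1, and *Mfap5* at -1.803 (adjusted p = 0.0987) without pericyte replicate 2. *Mfap5* was above 0, at most 0.245, without pericyte replicate 1 or 3 or SI Fgfr2+ FB replicate 3. The FB populations differ widely among themselves in *Eln*, *Mfap5* and *Lox*, and for *Eln* the pericytes lay between SI PDGFRα hi FB and CD34+ FB, except for coding transcripts, where pericyte replicate 1 at 2.52 CPM was below SI PDGFRα hi FB. Of 26 partner genes tested, 1 was called higher and 11 lower in pericytes. *Hmcn2* (-7.49 ± 0.51 SE, adjusted p = 4.06e-07) and *Efemp1* (-7.12 ± 0.74 SE, adjusted p = 1.76e-05) had the largest differences, and *Ltbp2*, a fibrillin-binding protein, was at -4.03 ± 1.29 (SE, adjusted p = 0.0459). *Ltbp2* in pericytes, at 0, 0.883 and 2.705 CPM, overlapped CD34+ FB, at 1.91, 1.92 and 3.54 CPM, and Fgfr2+ FB, at 1.32, 93.5 and 7.6 CPM. Its level in PDGFRα hi FB was 71.25, 183 and 47.5 CPM. *Tll2* was called lower, being at 0 counts in the 3 pericyte libraries and above 4 counts only in PDGFRα hi FB among the FB. Through those PDGFRα hi FB libraries it passed the filter on low counts.

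SI SMC against the same FB gave a mixed picture, with MAGP-2 higher and fibrillin-1 and the 3 fibulins among the members lower. *Mfap5* was 18.9-fold higher, and *Fbn1* 3.87-fold, *Fbln1* 16.03-fold, *Fbln2* 21.9-fold and *Fbln5* 3.81-fold lower. These folds are against the mean of the FB populations on the log2 scale. For *Mfap5* the FB means were 166 CPM in CD34+ FB, 10.4 CPM in Fgfr2+ FB and 0.79 CPM in PDGFRα hi FB. SMC were at 205 ± 150 CPM, so the fold rests largely on the FB populations with little *Mfap5*. So 1 of 10 members was called higher and 4 lower, while 4.73% of the 15970 genes tested were called higher and 2.55% lower. In the middle of each distribution, the median log2 fold change was -1.15 over the 10 genes and 0.03 over all genes tested. By DESeq2 5 members were called, among 1620 genes in all, and 9 had an unadjusted p below 0.05, as did 24.1% of the genes tested.

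*Mfap5* in SMC, at 132, 105 and 377 CPM, overlapped CD34+ FB, at 179.8, 163 and 156 CPM, and lay above each library of Fgfr2+ FB and PDGFRα hi FB (4.24 ± 0.47 SE, adjusted p = 4.12e-05). Without SMC replicate 3 it was at 3.42 (adjusted p = 3.63e-04), still called. *Fbn1* in SMC was at 817, 625 and 629 CPM, below each FB library (-1.95 ± 0.2 SE, adjusted p = 1.88e-05). *Fbln5*, at 61.6, 46.8 and 89.2 CPM, was below each FB library too (-1.93 ± 0.27 SE, adjusted p = 3.43e-04). *Fbln1* at 11.9, 15.8 and 6.05 CPM (-4.003 ± 0.44 SE, adjusted p = 3.89e-05) and *Fbln2* at 2.53, 5.101 and 3.96 CPM (-4.45 ± 0.47 SE, adjusted p = 2.31e-05) overlapped SI PDGFRα hi FB alone. *Mfap4*, at -0.64 (adjusted p = 0.113), was not called. Of 27 partner genes tested, 1 was called higher, *Thsd4*, which encodes a microfibril-binding ADAMTS-like protein (2.43 ± 0.31 SE, adjusted p = 1.39e-04). The 3 called lower were *Ltbp2* (-3.78 ± 1.095 SE, adjusted p = 0.04304), *Efemp1* (-1.799 ± 0.32 SE, adjusted p = 0.00241) and *Tll2*, at 1 count or fewer in each SMC library. *Ltbp2* in SMC, at 0.633, 2.502 and 1.1 CPM, overlapped CD34+ FB and Fgfr2+ FB. *Tll2* passed the filter on low counts through the libraries of SI PDGFRα hi FB, where it was high.

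Colonic pericytes were set against the mean of the 4 colonic FB populations on the log2 scale, and 7 members were lower in the pericytes. *Mfap4* was 279-fold, *Fbln1* 242-fold, *Fbln5* 55.2-fold, *Fbln2* 35.2-fold, *Mfap5* 12.9-fold, *Fbn1* 9.34-fold and *Eln* 4.17-fold lower. Of 10 members 0 were called higher and 7 lower, while 8.99% of the 16458 genes tested were called higher and 7.58% lower. Median log2 fold changes were -3.45 over the 10 genes and 0.05 over all genes tested. By DESeq2 7 members were called, among 3258 genes in all, and 8 had an unadjusted p below 0.05, as did 33.4% of the genes tested.

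*Mfap4* was at 3.65, 3.15 and 3.52 CPM in colonic pericytes (-8.12 ± 0.39 SE, adjusted p = 2.18e-10) and *Fbln1* at 3.12, 6.93 and 3.303 CPM (-7.92 ± 0.42 SE, adjusted p = 8.82e-10). *Fbn1* was at 423, 469 and 369 CPM (-3.22 ± 0.24 SE, adjusted p = 3.58e-08). *Fbln5* differed by -5.79 ± 0.5 (SE, adjusted p = 1.92e-07) and *Fbln2* by -5.14 ± 0.65 (SE, adjusted p = 1.56e-05). For these 5 genes each pericyte library was below each colonic FB library. *Eln* in pericytes, at 184, 95.6 and 215 CPM, lay above colonic PDGFRα hi FB and below the other 3 FB populations (-2.06 ± 0.39 SE, adjusted p = 0.00112). *Mfap5*, at 2.15, 29.2 and 5.17 CPM, overlapped colonic PDGFRα hi FB (-3.68 ± 0.599 SE, adjusted p = 2.43e-04). Without pericyte replicate 2 it was at -5.37 (adjusted p = 2.88e-07) and kept its call. Smooth muscle markers, none at 0, summed to 9914, 11180.0 and 10877 CPM in these pericytes, with *Myh11* the highest, and to at most 2111 CPM in the colonic FB. *Ano1* and *Kit*, nearly all of it *Ano1*, summed to 722, 854 and 591 CPM against at most 83.3 CPM, with *Kit* at 0 in pericyte replicates 1 and 3. The part of either list was not tested.

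*Lox*, at -1.06 ± 0.32 (SE, adjusted p = 0.0261), did not reach the fold threshold in colonic pericytes, and *Emilin1* (-0.83, adjusted p = 0.338) and *Mfap2* (-1.696, adjusted p = 0.236) were not called. Without colonic pericyte replicate 3 these 2 were called lower, *Emilin1* at -2.83 (adjusted p = 6.72e-04) and *Mfap2* at -4.83 (adjusted p = 0.00606), so that 9 members were called. In that library the 5 FB markers summed to 1675 CPM, against 1461 and 1716 CPM in the other libraries, and the 5 epithelial markers to 0.0718 CPM; their part was not tested. Of 26 partner genes tested, 2 were called higher and 11 lower. *Efemp1* (-8.34 ± 0.45 SE, adjusted p = 9.63e-10), *Emilin2* (-5.904 ± 0.95 SE, adjusted p = 2.18e-04) and *Hmcn2* (-5.45 ± 0.66 SE, adjusted p = 9.93e-06) were lower. *Mmrn1*, which encodes a multimerin, was called higher, at 0, 50.1 and 12.3 CPM in pericytes, where replicate 1 was at 0, and 0, 0 and 4.005 CPM in CD90+ FB.

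Between the pericytes of the 2 tissues, 0 members were called by edgeR, while 0% of the 13369 genes tested were called higher and 0% lower. DESeq2 called 348 genes, none of them a member, and 2 members had an unadjusted p below 0.05, as did 8.18% of the genes tested. *Lox* was at 88.9, 139 and 94.6 CPM in the colon and 32.4, 24.6 and 23.1 CPM in the small intestine (1.99 ± 0.71 SE, adjusted p = 0.503). *Fbn1* was at 423, 469 and 369 and 1069, 516 and 709 CPM (-0.89 ± 0.39 SE, adjusted p = 0.607). Neither gene had overlapping groups, and *Mfap4* was apart as well, by the small margin given above. The share of all genes without overlap is not given. With all 30 libraries in 1 model 2 members were called, *Lox* at 2.01 (adjusted p = 0.0154) and *Mfap4* at -1.58 (adjusted p = 0.0285). As medians, log2 fold changes were 0.299 over the 10 genes and -0.01 over all genes tested, and 0 of 22 partner genes tested were called. The sum of 5 smooth muscle markers, with *Myh11* or *Des* the highest and none at 0, was 9914, 11180.0 and 10877 CPM in colonic and 4493, 2946 and 3179 CPM in SI pericytes. FB markers, none at 0 and *Col1a1* or *Col1a2* the highest, were at 1461, 1716 and 1675 and 2562, 2552 and 1978 CPM. Endothelial markers, with *Pecam1* or *Vwf* the highest, were at 96.6, 57.6 and 75.7 and 164, 138 and 105 CPM, with *Cdh5* at 0 in colonic replicates 1 and 2 and in SI replicate 2, and *Emcn* in colonic replicate 1. The part of these 3 lists in the values was not tested.

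Over the means of the 10 populations, which share a normalization but no library, the members' patterns of log2 CPM ran from alike to unrelated. As a description (n = 10 populations), Pearson's r was 0.966 for *Fbln1* and *Fbln2* and 0.923 for *Fbn1* and *Mfap2*, the highest of the 45 pairs. It was -0.08501 for *Eln* and *Emilin1* and -0.0515 for *Emilin1* and *Mfap5*, the lowest. *Fbln5* was closer to *Mfap4* (0.895) and *Emilin1* (0.861) than to *Eln* (0.252). *Eln* was closest to *Mfap5* (0.846) among the members.

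Among 12611 genes, those most like each member over the 10 populations were found by the same r. *Ctsl* was most like *Fbln1* (0.991) and also most like *Fbln2* (0.983). *Grem1* was most like *Eln* (0.958), followed by *Dnah8* and *Pid1*, and *Fmo1* was most like *Fbn1* (0.974), followed by *Anxa5* and *Cd28*. *Mfap4* was matched by *Vsir* (0.981), *Ltbp4* (0.9799) and *Bgn* (0.979), and *Mfap5* by *Epha1* (0.977), *Col8a1* and *Rtl9*. For *Fbln5* they were *Ubac1* (0.985), *Robo1* and the partner *Efemp1* (0.981). For *Emilin1* they were *Rnaset2b* (0.972), *Asna1* and the partner *Efemp2* (0.969). For *Mfap2* they were *Prokr1* (0.9797), *Kdelr2* and *Entpd5*, and for *Lox*, with the lowest values, *Vsig10l* (0.9404), *Capn6* and *Ccdc80*.

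The transcripts behind the gene counts differed in kind. Transcripts not annotated as coding held 86.2%, 75.1% and 31.6% of the *Emilin1* counts in the 3 colonic pericyte libraries and 31.5%, 28.3% and 31.8% in SI PDGFRα hi FB. Per kilobase the noncoding transcripts, one of them a short retained intron, held 65.2% to 84.8% of the level in each population, and so levels per kilobase are given for coding transcripts. For *Eln* such transcripts held 97.7%, 34.3% and 10.9% of the counts in SI pericytes and 33.3%, 38.7% and 39.4% in SI CD34+ FB. The coding *Eln* level was thus at 2.52, 72.0 and 195.8 CPM in SI pericytes, with replicate 1 far below the others. For *Fbln2* they held 97.8%, 0% and 79.7% in colonic pericytes and 54.8% in SI Fgfr2+ FB replicate 1, and for *Mfap5* 92.03% in that same library. Of the 31-base stretches of the members' transcripts, 19.9% for *Fbn1* also occur in 4 other genes, among them *Gm9913*, which lies within the *Fbn1* locus and held at most 0.297% of the *Fbn1* count in any library. For *Mfap4* the share was 3.03%, for *Emilin1* 1.64%, for *Eln* 0.886%, and for the other 6 at most 0.0773%.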

How the data were processed

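RNA was amplified and sequenced from 30 libraries of 10 sorted populations. The authors trimmed reads with Trim Galore 0.4.0, checked them with FastQC 0.11.2 and quantified transcripts with kallisto 0.42.5; the transcript set is not stated. The deposited unit of each transcript value is an estimated count, an expected number of reads, in which a read compatible with more than 1 transcript is shared out. The other unit deposited by the authors is TPM, that quantity per effective length, scaled to a fixed total.

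Of 98492 transcripts, 97204 were matched by identifier to 32386 gene symbols of GENCODE M21 (GRCm38), which held between 97.8% and 99.2% of each library's counts. These estimated counts were added up per gene symbol and the expected counts rounded to whole numbers. Libraries held 2245052 to 19096945 counts, so a CPM value near 1 rests on a few counts, and such precision covers counting error only. TPM served in alternatives alone, since 1 transcript held between 14.8% and 55.9% of it.

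Each comparison was fitted over all genes with edgeR 4.0.16 (quasi-likelihood F-test, TMM, at least 6 counts in at least 3 libraries) in R 4.3.3, with Benjamini-Hochberg adjusted p-values. Calls needed an adjusted p under 0.05 together with a log2 fold change beyond 1.5 in either direction. Where a side of a comparison held several populations, their log2 values were averaged with equal weight. SE is the absolute log2 fold change over the root of F. The pipeline was also run on counts drawn from the fitted model of some comparisons, with known changes in better-expressed genes alone. The outcome is not given here. Comparisons that share libraries are not independent. Overlap between libraries is described for the genes named, and the share of all genes without overlap is not given.

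Alternatives were another test (DESeq2 1.42.0), upper-quartile or RLE scaling, no filter, a stricter one (at least 10 counts in each library of a group), no fold threshold, the replicate number as a block, all libraries in 1 model, each library left out in turn, and for levels RLE, no factor and TPM. Levels from protein-coding transcripts alone, and shares with a library left out, were added after seeing the data. All members are named; of the 27 partner genes, at most 4 called ones per comparison with the largest absolute log2 fold change; and for each member the 3 genes with the highest Pearson r of mean log2 CPM (prior count 2) among those at 10 CPM or more in a population. The members and lists were chosen with earlier results of these data known. Tables and plots used Python 3.11.15, pandas 2.3.3 and matplotlib 3.10.9. Of 11 marker lists 1 is not reported here, although its sums were also apart between the tissues in Fgfr2+ FB and between SI CD34+ FB and Fgfr2+ FB. No protein table was available, so no sequence is shown.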

Additional observations from a re-analysis of the deposited data

Results flagged for a closer look

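The interaction of tissue and FB subset was called for *Fbn1* and *Fbln2*, and neither call held in every fit. For *Fbn1* the log2 difference between colon and small intestine in Fgfr2+ FB minus that in PDGFRα hi FB was 1.62, with levels in Fgfr2+ FB of 3306 ± 792 CPM (colon) and 1755 ± 241 CPM (SI, small intestine), and in PDGFRα hi FB of 1580.3 ± 327 and 2703 ± 122 CPM (mean ± SD of 3 libraries). For *Fbln2* it was -2.72, with 314 ± 135 and 194 ± 101 CPM in Fgfr2+ FB and 88.5 ± 26.1 and 8.697 ± 4.54 CPM in PDGFRα hi FB. The *Fbln2* call was lost in 9 of 12 fits with a library left out, with upper-quartile normalization (-2.73, adjusted p = 0.0506) and with all libraries in 1 model (-2.64, adjusted p = 0.271), and the *Fbn1* call in 2 of the 12. The gates of both subsets differed between the tissues, and tissue and gate cannot be told apart.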

How the results depend on the processing

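Over 2008 recomputed log2 fold changes of members, 1890 kept their direction and side of the threshold, 41 lost a call, 29 gained one, 0 called values reversed, and 48 values that were not called changed sign. The number of members whose interaction was called, 2, became 4 with DESeq2, 4 with no filter on low counts, 1 with upper-quartile normalization, 1 with all libraries in 1 model, and 0 to 4 with a library left out. With all libraries in 1 model, 2 members in place of 0 were called between the pericytes of the 2 tissues, and 5 in place of 2 between SMC and SI pericytes, where leaving out a library gave 1 to 2. With no fold threshold, 6 members in place of 3 were called between SI CD34+ FB and Fgfr2+ FB, and leaving out a library gave 2 to 5. Leaving out a library gave 2 to 4 called members between the tissues in PDGFRα hi FB and 2 to 4 in Fgfr2+ FB, where 4 were called in each. Apart from DESeq2, the share of all genes called in these settings is not given, here or above. These counts thus describe the members alone. The causes were not tested. The replicate number as a block changed no count of called members, although *Fbln5* lost its call between SMC and SI pericytes (4.79, adjusted p = 0.0587) and *Mfap5* gained one (5.02, adjusted p = 0.0377). The pairing of replicates by number was checked over 12612 genes. Residuals of the 135 pairs of libraries with the same number and different populations had a mean r of 0.0113, against -0.00507 for different numbers. Of 30 libraries, 23 were closest to their own number among 3, more than an even split over the numbers gives. The main fits do not use the number. Over 100 levels, RLE moved 0 by more than 1 SD, no normalization factor 5, TPM 15 and coding transcripts alone 3; per kilobase, coding transcripts alone moved 22. With deposited TPM the lowest level of *Fbln2* and of *Lox*, and with protein-coding transcripts alone that of *Fbln2*, was in SI pericytes.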
